A study of Mus musculus with 35 samples.

Results

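Integrins are cell surface receptors made of an alpha and a beta subunit. The alpha subunit largely sets which ligand is bound, and the beta subunit carries the cytoplasmic tail that talin and kindlin bind when the receptor is switched on. In microglia, the resident macrophages of the brain, Itgam (CD11b) and Itgb2 (CD18) form complement receptor CR3, which takes up complement-tagged material, and receptors built on Itgav bind vitronectin, fibronectin and the latent form of TGF-beta. Here 10 integrin subunits of the 55401 gene identifiers in the mRNA counts were followed across development: Itgam, Itgal and Itgb2 of the leukocyte group, Itga4, Itga6, Itga9 and Itgb1 of the beta1 group, and Itgav, Itgb3 and Itgb5 of the alphav group. They were chosen by name, with earlier results of these data known, and each of the 10 passed the filter on low counts.

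The cells were CD45+ microglia, captured by immunopanning on an antibody to the pan-leukocyte protein CD45 from whole brains of wild-type C57Bl/6 mice after the meninges had been removed by hand. One library was made per mouse at postnatal day 6 (P6, 4 females and 6 males), postnatal day 15 (P15, 6 females and 6 males) and 8 weeks (6 females and 6 males). The study removed 1 mouse as an outlier, and P6 female 6 is not among the mice in its plotted source data, so this female was left out of each mean and fit below unless named. Other leukocytes carry CD45 too, so the capture does not separate microglia from them. Totals ran from 23316107 to 38965078 fragments per mouse, and each integrin subunit had at least 197 fragments in each of the 34 mice.

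The libraries differed between ages in more than integrins. All 10 of the microglia markers examined (among them Tmem119, P2ry12 and Cx3cr1) were higher at P15 than at P6, and their summed level in CPM (counts scaled to a common library total) ran from 12974 to 23842 at P6, 24642 to 54311 at P15 and 35881 to 55784 at 8 weeks. All 7 markers of neural progenitors and immature neurons (among them Dcx and Sox11) fell at each step, with summed levels of 654 to 1995, 118 to 831 and 86.5 to 202 CPM. Of 6 astrocyte markers 4 were higher and 0 lower at P15 than at P6 (median log2FC 1.17), with summed levels of 458 to 1167 CPM at P6, 758 to 6849 at P15 and 1463 to 4366 at 8 weeks. Of 6 endothelial markers 2 were higher and 0 lower at P15 than at P6, and 3 and 0 at 8 weeks than at P6, with sums of 45.4 to 129, 79.4 to 225 and 106 to 265 CPM. The sum of 7 oligodendrocyte lineage markers ran from 264 to 712 CPM at P6, 771 to 3049 at P15 and 319.5 to 1585 at 8 weeks. Single markers went both ways, with 3 higher and 2 lower at P15 than at P6 (median log2FC -0.32). From P6 to 8 weeks 3 were higher and 4 lower (median -1.12). The part of astrocytes, endothelium and oligodendrocytes in the integrin levels was not tested. Less RNA per cell and fewer cells of a type cannot be told apart in these bulk libraries. Levels below are therefore given first as CPM after TMM scaling, which holds the median change of all genes near 0 (-0.014, 0.018 and 0.038 in log2FC for P15 over P6, 8 weeks over P15 and 8 weeks over P6), and then relative to the 10 microglia markers, a scaling that shifted that median to -1.33, -0.18 and -1.48.

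Promoter sequence was at hand for 6 of the 10 subunits (Itgam, Itgb1, Itgb5, Itga4, Itga9 and Itgav, from RefSeq on GRCm38.p6). The 250 bases before the start of transcription are printed for Itgam and Itgb5, which had the largest rises to P15, and for Itgb1, which did not pass the test at any step. Capitals mark GAGGAA or its reverse complement TTCCTC, the core letters bound by the myeloid factor PU.1.
Itgam: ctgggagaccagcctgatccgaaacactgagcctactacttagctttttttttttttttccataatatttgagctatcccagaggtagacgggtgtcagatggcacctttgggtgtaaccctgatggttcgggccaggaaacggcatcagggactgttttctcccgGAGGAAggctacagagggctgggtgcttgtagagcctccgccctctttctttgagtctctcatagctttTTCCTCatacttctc
Itgb5: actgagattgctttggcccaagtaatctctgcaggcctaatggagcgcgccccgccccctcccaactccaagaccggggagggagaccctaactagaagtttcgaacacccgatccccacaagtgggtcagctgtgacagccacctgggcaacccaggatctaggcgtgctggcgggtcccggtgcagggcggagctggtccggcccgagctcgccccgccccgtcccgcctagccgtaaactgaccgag
Itgb1: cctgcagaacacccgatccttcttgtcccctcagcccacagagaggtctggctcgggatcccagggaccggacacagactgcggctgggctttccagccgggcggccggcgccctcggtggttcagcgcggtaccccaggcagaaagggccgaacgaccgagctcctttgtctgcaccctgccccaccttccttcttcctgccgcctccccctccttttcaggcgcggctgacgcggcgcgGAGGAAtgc
These windows lie on the forward strand at chr7:128062390-128062639, chr16:33829415-33829664 and chr8:128685404-128685653. The Itgam window held GAGGAA starting 84 bases and TTCCTC starting 15 bases before the start of transcription, and Itgb1 held GAGGAA starting 9 bases before it. Neither string was in the windows of Itgb5, Itga4 and Itga9, while Itgav held GAGGAA 218 bases and TTCCTC 7 bases before its start. Of all 32851 promoter windows of this length 23.3% held the motif on either strand. The GC box letters GGGCGG, or CCGCCC on the other strand, were in 32.7% of the windows. They were found 3 times in Itgb5, once each in Itgam, Itgb1 and Itga4, and not in Itgav or Itga9. GC content was 49.6% in the Itgam window, 65.2% in Itgb5 and 68.0% in Itgb1, beside a median of 52.4% over all windows. A match is a string of letters and was not tested as a binding site. The RefSeq start used for Itga9 lies inside the gene as GENCODE annotates it.

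Between P6 and P15, 7 of the 10 subunits rose (Itgam, Itgb2, Itga6, Itga9, Itgav, Itgb3 and Itgb5), 2 fell (Itgal and Itga4), and Itgb1 did not pass the test. Across all 17612 genes tested 30.4% were called higher and 31.4% lower in this comparison. The median log2FC was 0.91 over the 10 subunits and -0.014 over all genes. By the stricter test for a change of over 2-fold, 2 subunits rose (Itgam and Itgb5) and 0 fell, beside 4.87% and 4.85% of all genes. From P15 to 8 weeks 3 subunits rose (Itgb2, Itgal and Itgav) and 0 fell, where 24.0% and 23.9% of all genes were called, and 0 changed by over 2-fold in either direction (1.20% and 3.07% of all genes). From P6 to 8 weeks 7 subunits were higher, namely those that rose by P15, and 0 lower, beside 37.8% and 36.6% of all genes. Of these Itgam, Itgb2 and Itgb5 were over 2-fold higher, and 0 were over 2-fold lower (11.5% and 12.4% of all genes). Where 0 subunits were called lower, edgeR and limma-voom also had 0 with an unadjusted p under 0.05 in that direction. DESeq2 had 1 from P15 to 8 weeks and 0 from P6 to 8 weeks. The comparisons share mice, so they are not independent of each other.

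These directions hold for CPM. When the libraries were scaled to the microglia markers, the direction turned for 5 of the 9 subunits called from P6 to P15, for 0 of the 3 called from P15 to 8 weeks and for 4 of the 7 called from P6 to 8 weeks. On that scale Itgam and Itgb5 were higher at P15 than at P6, by 0.31 and 0.20 in log2FC, and the other 8 subunits were lower, where 2.90% and 84.7% of all genes were called higher and lower. From P6 to 8 weeks 3 subunits (Itgam 0.16, Itgb2 0.35 and Itgb5 0.24) were higher and the other 7 lower, from -0.35 for Itgav to -1.74 for Itgal, beside 5.17% and 83.0% of all genes. From P15 to 8 weeks 2 were higher (Itgb2 and Itgal) and 4 lower (Itgam, Itga6, Itga9 and Itgb1), beside 10.3% and 33.4% of all genes. With the mean log2 CPM of the neuron and progenitor markers as a covariate, 7 were called higher and 2 lower (Itgal and Itgb1) from P6 to P15, beside 27.6% and 26.6% of all genes. In that fit 0 were higher and 5 lower from P15 to 8 weeks (Itgam -0.61, Itga6 -0.75, Itga9 -0.63, Itgb1 -0.58 and Itgb3 -0.50 in log2FC), beside 19.6% and 19.3% of all genes. From P6 to 8 weeks 4 were higher (Itgam, Itgb2, Itgav and Itgb5) and 2 lower (Itgal and Itgb1), beside 25.8% and 23.7% of all genes. Itga6, Itga9 and Itgb3 were then not called over that span, at -0.12, -0.080 and -0.17. The covariate itself falls with age, so its part and that of age cannot be told apart.

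**Figure D1:**
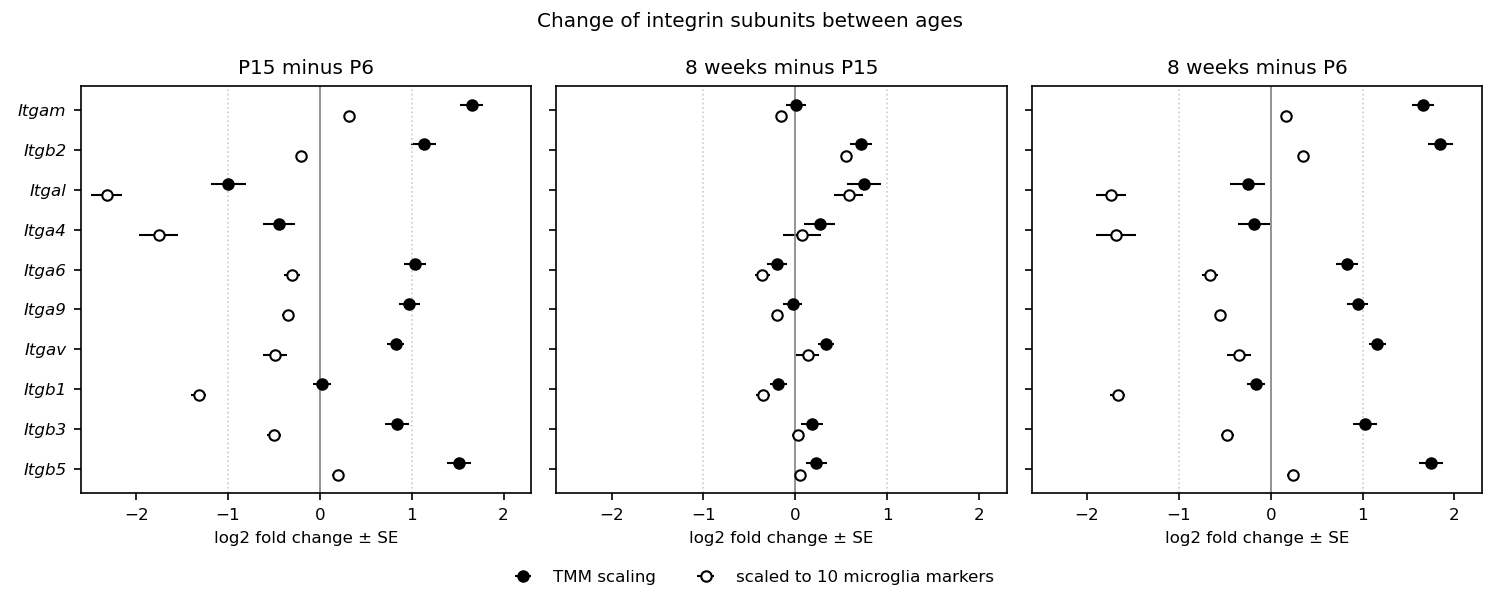
Change of each integrin subunit between ages, as log2 fold change with its standard error, from the edgeR fit to 34 mice. Filled points use TMM scaling and open points scale each library to 10 microglia markers, and dotted lines mark a 2-fold change. In the P15 minus P6 panel 7 subunits are called higher as filled points, and as open points only Itgam (0.31) and Itgb5 (0.20) stay above 0.

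Itgam encodes CD11b (ENSMUSG00000030786, chr7:128062640-128118491, GRCm38/mm10, + strand). Its lowest, median and highest levels were 119, 141 and 219 CPM in the 10 P6 mice, 272, 467 and 650.4 CPM in the 12 P15 mice, and 377, 491 and 551 CPM in the 12 mice of 8 weeks. Every P15 and 8-week mouse was above every P6 mouse, and the P15 and 8-week ranges overlapped. The rise to P15 was 3.15-fold (log2FC 1.65 ± 0.12 SE, FDR = 3.96e-13, edgeR's quasi-likelihood test). From P15 to 8 weeks the log2FC was 0.00508 ± 0.11, with an FDR of 0.974, and it was called lower on the microglia marker scale (-0.15, FDR = 0.0167) and with the neural covariate (-0.61, FDR = 7.46e-06, edgeR). Exons of Itgam overlap those of the same-strand gene Gm49368, which was counted 0 to 32 times per mouse, and how fragments shared by both were counted was not tested.

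Itgb2 encodes CD18, the beta subunit shared by the leukocyte integrins (ENSMUSG00000000290, chr10:77530252-77565708, + strand). It stood at 91.5, 118 and 182 CPM (lowest, median, highest) at P6, 145, 264 and 391 at P15, and 322, 421 and 642 at 8 weeks. Itgb2 rose at both steps, first 2.19-fold (log2FC 1.13 ± 0.13, FDR = 1.42e-08) and then 1.64-fold (0.72 ± 0.12, FDR = 2.40e-05) by edgeR. The P6 and 8-week mice did not overlap, and the total rise was 3.60-fold (log2FC 1.85 ± 0.14, FDR = 2.44e-13, edgeR). The second step was lost with the neural markers as a covariate, at a log2FC of -0.00023.

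Itgal encodes CD11a, which joins Itgb2 to form LFA-1, a receptor for the ICAM proteins (ENSMUSG00000030830, chr7:127296260-127335138, + strand). Its lowest, median and highest levels were 15.7, 26.3 and 39.0 CPM at P6, 8.34, 13.5 and 22.1 at P15, and 14.7, 18.1 and 58.2 at 8 weeks. It fell 1.99-fold to P15 (log2FC -1.0 ± 0.19, FDR = 4.95e-05, edgeR) while its partner Itgb2 rose, and the ranges overlapped. It was higher again at 8 weeks than at P15 (0.74 ± 0.18, FDR = 0.00147), and the 8-week mice were not called different from P6 mice (-0.25 ± 0.19, FDR = 0.240). That last comparison was called lower with library size scaling (-0.39, FDR = 0.0440), on the microglia marker scale (-1.74) and with the neural covariate (-1.54, FDR = 0.000537). The rise after P15 was uneven. Males 4, 5 and 6 stood at 58.2, 35.6 and 44.1 CPM and the other mice of 8 weeks between 14.7 and 24.2 CPM. The summed level of 12 neutrophil and lymphocyte markers was 279.5, 142 and 243 CPM in those 3 males and ran from 63.7 to 179.6 CPM in the others. All 12 of these markers had counts in each 8-week male, and S100a9, S100a8 and Cd79b had the highest mean levels at that age. By age the sum ran from 47.8 to 109 CPM at P6, 44.9 to 169 at P15 and 63.7 to 279.5 at 8 weeks. The summed level of 9 monocyte and border macrophage markers ran from 724 to 1577 CPM at P6, 289 to 1031 at P15 and 366 to 719 at 8 weeks, and was 444, 498 and 583 CPM in those 3 males. Of these 9 markers 4 were higher and 3 lower at P15 than at P6 (median log2FC 0.069), and 2 and 4 at 8 weeks than at P6 (-0.12). As a description, Pearson's r over the 34 mice was taken after the mean of each age and sex group had been removed. Itgal had r = 0.30 with the neutrophil and lymphocyte markers. With the monocyte and border macrophage markers r was 0.64, and with the microglia markers 0.57. The part of any of these cells in the Itgal levels was not tested. The rise after P15 was lost with the neural markers as a covariate, at a log2FC of -0.00596.

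**Figure D2:**
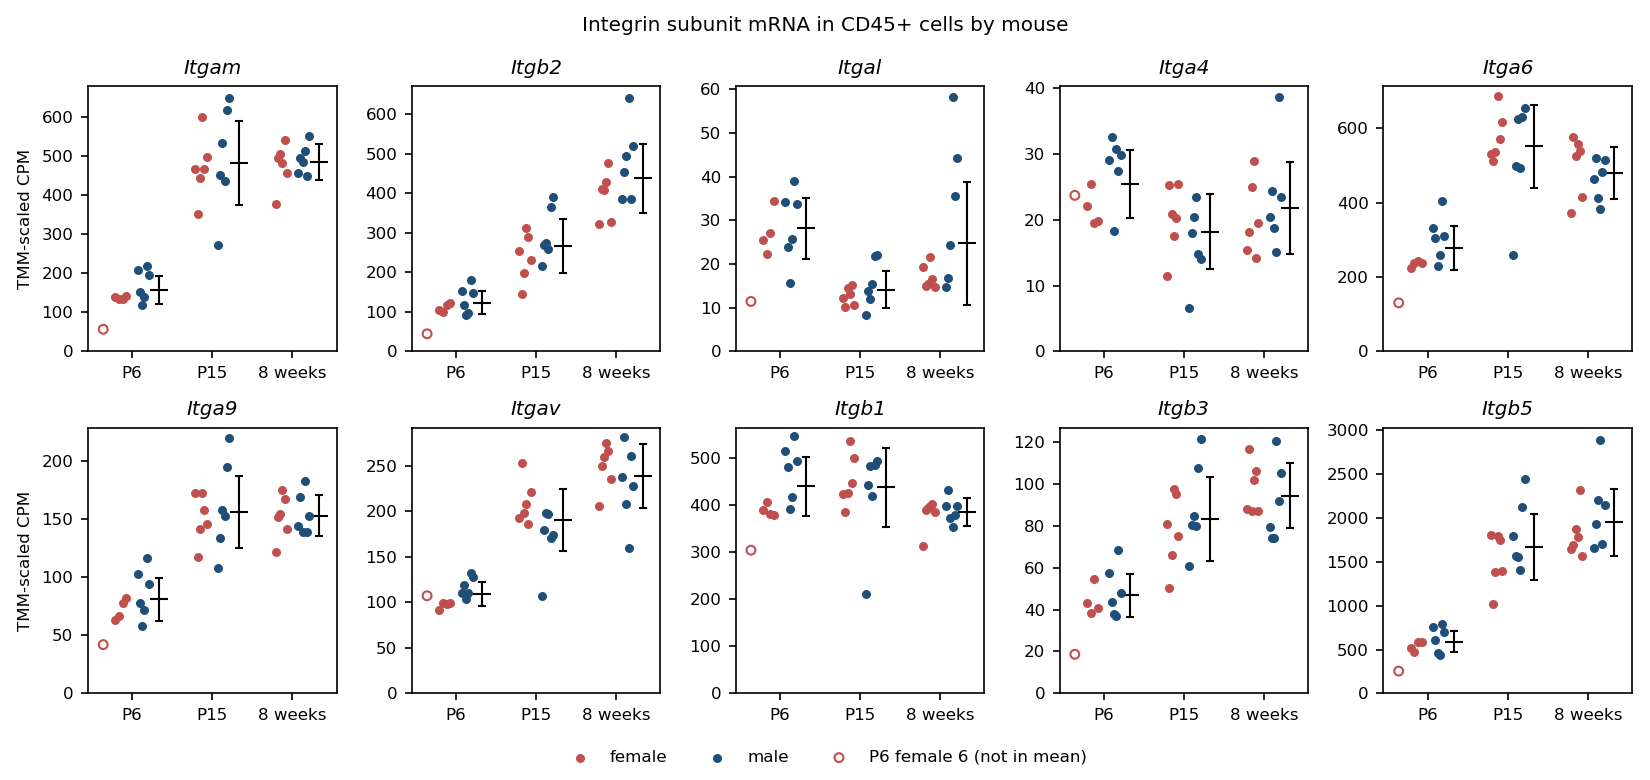
Level of each integrin subunit in TMM-scaled CPM, 1 point per mouse, by age and sex, with the mean and SD of the 10, 12 and 12 mice of each age in black and each panel on its own linear axis from 0. Itgam and Itgb5 separate P6 from the later ages without overlap, the mean of Itgal drops from 28.1 at P6 to 14.1 at P15, and the open point is P6 female 6, which is in no mean.

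In the beta1 group Itgb1, the beta subunit shared by the alpha chains, was not called at any step. Itgb1 (ENSMUSG00000025809, chr8:128685654-128733200, + strand) stood at 379.9, 413 and 548 CPM at P6, 211, 446 and 536 at P15 and 313, 392 and 433 at 8 weeks (lowest, median, highest). The ages overlapped throughout, and the log2FC was 0.027 ± 0.10 to P15 (FDR = 0.825) and -0.19 ± 0.09 after it (FDR = 0.0957) by edgeR. The P15 minimum came from male 1, and the next lowest P15 mouse had 385 CPM. Without that male Itgb1 fell after P15 (-0.28 ± 0.06, FDR = 0.000761) and from P6 to 8 weeks (-0.18 ± 0.07, FDR = 0.0139). The step from P6 to P15 was not called without it either (0.10 ± 0.07, FDR = 0.216). With the neural markers as a covariate, and the male kept, Itgb1 was called lower to P15 (-0.27 ± 0.10, FDR = 0.0229), after P15 (-0.58 ± 0.11, FDR = 0.000130) and from P6 to 8 weeks (-0.85 ± 0.17, FDR = 0.000114). On the microglia marker scale its log2FC was -1.32, -0.35 and -1.67, each called lower. In P15 male 1 the monocyte and border macrophage markers summed to 289 CPM, beside 646 to 1031 in the other P15 mice, and the neural progenitor and immature neuron markers to 831 CPM, beside 118 to 657, while its microglia marker sum of 31373 CPM lay inside the range of the others. Their part in its Itgb1 and Itga6 levels was not tested. Within age and sex groups r with the monocyte and border macrophage markers was 0.76 for Itgb1 and 0.76 for Itga6. With the neural progenitor and immature neuron markers r was -0.69 and -0.76, and with the microglia markers 0.70 and 0.72. From P6 to 8 weeks Itgb1 was also called lower with library size scaling over all 34 mice (FDR = 0.00341) and when only the P6 and 8-week mice were fitted (FDR = 0.0200).

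Itga6 pairs with Itgb1 as a laminin receptor (ENSMUSG00000027111, chr2:71745616-71858416, + strand). It was at 225, 252 and 406 CPM at P6, 259.7, 554 and 686 at P15 and 372, 499 and 576 at 8 weeks. P15 male 1 was the only P15 mouse inside the P6 range. Itga6 rose 2.04-fold to P15 (log2FC 1.03 ± 0.12, FDR = 8.35e-09) and was not called after that (-0.20 ± 0.11, FDR = 0.137, edgeR). Without P15 male 1 it was lower at 8 weeks than at P15 (-0.29 ± 0.09, FDR = 0.00818), as it was with that male on the microglia marker scale (-0.36) and with the covariate.

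Itga9 pairs with Itgb1 to bind tenascin-C and osteopontin (ENSMUSG00000039115, chr9:118606690-118901003, + strand). Its levels were 58.0, 77.4 and 117 CPM at P6, 108, 155 and 219 at P15 and 121, 152 and 183 at 8 weeks. The rise to P15 was 1.97-fold (log2FC 0.98 ± 0.11, FDR = 1.03e-08), and the later change was -0.028 ± 0.11 (FDR = 0.840) by edgeR. That later change was called lower with the neural markers as a covariate (-0.63 ± 0.10, FDR = 5.25e-06) and on the microglia marker scale (-0.20 ± 0.05, FDR = 0.00325). All 8-week mice were above all P6 mice.

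Itga4 pairs with Itgb1 as VLA-4, a receptor for VCAM1 that leukocytes use to cross vessel walls (ENSMUSG00000027009, chr2:79255426-79333123, + strand). It was at 18.4, 26.5 and 32.6 CPM at P6, 6.65, 19.2 and 25.5 at P15 and 14.1, 19.9 and 38.7 at 8 weeks. It fell 1.36-fold to P15 (log2FC -0.45 ± 0.17, FDR = 0.0268, edgeR), with overlapping ranges, and was not called from P15 to 8 weeks (0.27 ± 0.17, FDR = 0.184) or from P6 to 8 weeks (-0.18 ± 0.17, FDR = 0.352), the latter being called lower on the microglia marker scale (-1.68, FDR = 1.50e-08). The fall was no longer called with the neural markers as a covariate (-0.49 ± 0.23, FDR = 0.0680).

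All 3 subunits of the alphav group rose by P15. Itgav, the alpha subunit common to the vitronectin receptors (ENSMUSG00000027087, chr2:83724397-83806916, + strand), stood at 92.0, 107 and 132 CPM at P6, 107, 195 and 253 at P15 and 159, 244 and 282 at 8 weeks. It rose 1.77-fold to P15 (log2FC 0.83 ± 0.09, FDR = 4.48e-09) and 1.26-fold after it (0.33 ± 0.09, FDR = 0.00212) by edgeR, and the P6 and 8-week mice did not overlap. The later rise was not called on the microglia marker scale (0.14 ± 0.12, FDR = 0.383) or with the neural markers as a covariate (0.23 ± 0.14, FDR = 0.187). The rise of 2.24-fold from P6 to 8 weeks missed the test for a change of over 2-fold (FDR = 0.0507, edgeR's glmTreat).

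Itgb3 joins Itgav in the classical vitronectin receptor and is also the beta subunit of the platelet fibrinogen receptor (ENSMUSG00000020689, chr11:104608000-104670476, + strand). It was at 37.1, 43.3 and 68.3 CPM at P6, 50.1, 80.5 and 121 at P15 and 74.0, 90.0 and 120.1 at 8 weeks. It rose 1.79-fold to P15 (log2FC 0.84 ± 0.13, FDR = 1.46e-06) and was not called after it (0.18 ± 0.12, FDR = 0.204, edgeR), though with the neural covariate it was called lower (-0.50 ± 0.10, FDR = 0.000256). Of 6 platelet and megakaryocyte markers 3 passed the filter on low counts, all 3 were higher at P15 than at P6, and the summed level of those 3 ran from 4.95 to 10.6 CPM at P6, 14.5 to 36.5 at P15 and 23.2 to 43.3 at 8 weeks. Itga2b, the platelet partner of Itgb3, was at 2.52 ± 0.948, 2.42 ± 0.913 and 3.06 ± 1.53 CPM (SD, 10, 12 and 12 mice) and was not called from P6 to P15 (FDR = 0.802, edgeR). Within age and sex groups Itgb3 had r = 0.61 with the 3 platelet and megakaryocyte markers and 0.85 with the microglia markers. The part of platelets in the Itgb3 levels was not tested.

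Itgb5, the other vitronectin-binding partner of Itgav (ENSMUSG00000022817, chr16:33829665-33949338, + strand), had the highest level per kilobase of the 10 at each age. Its lowest, median and highest levels were 440.4, 582 and 786 CPM at P6, 1013, 1654 and 2441 at P15 and 1569.7, 1827 and 2892 at 8 weeks. The lowest P15 mouse was above the highest P6 mouse. The rise to P15 was 2.86-fold (log2FC 1.52 ± 0.13, FDR = 1.02e-11), and from P15 to 8 weeks the change was 0.23 ± 0.12 (FDR = 0.104) by edgeR. Scaling by library size alone took that second step past the threshold (0.22 ± 0.09, FDR = 0.0351), while it was 0.046 ± 0.06 (FDR = 0.575) on the microglia marker scale and turned to -0.31 ± 0.13 (FDR = 0.0581) with the neural markers as a covariate.

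Counting subunits for which every mouse of the later age was above every mouse of the earlier age, P6 and P15 were separated by 2 (Itgam and Itgb5), P6 and 8 weeks by 6 (Itgam, Itgb2, Itga9, Itgav, Itgb3 and Itgb5) and P15 and 8 weeks by 0. Over all genes tested the shares were 5.25%, 14.8% and 1.65%. P6 female 6 had a lower level of 8 subunits than any other P6 mouse, for example 56.8 CPM of Itgam and 254 CPM of Itgb5, while its Itgav (107 CPM) and Itga4 (23.7 CPM) were inside the P6 range. Its mean log2 CPM over the microglia markers was 8.78, where the other P6 mice had 9.88 to 10.7.

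To compare subunits with each other, CPM were divided by exonic length in kilobases. Per kilobase Itgb5 led at each age with 166 ± 34.8 (SD, 10 mice) at P6, 469 ± 105 (12 mice) at P15 and 549 ± 108 (12 mice) at 8 weeks, and it was above the next subunit in every mouse. At P6 the order after it was Itgb1 (108 ± 15.4), Itgb2 (40.5 ± 9.40), Itgam (31.4 ± 7.08) and Itga6 (30.9 ± 6.49). Itgam was above Itga6 in 5 of 10 mice and Itga9 (10.5 ± 2.41) above Itgav (10.2 ± 1.25) in 5 of 10, so neither pair was ordered beyond its spread. At P15 the second place of Itgb1 (107 ± 20.5) over Itgam (96.1 ± 21.6) held in 9 of 12 mice, as did the order of Itga9 over Itgav and of Itgav over Itgb3, so these neighbours were not separated beyond their spread. At 8 weeks Itgb2 (144 ± 28.9) was above Itgam (96.4 ± 9.19) in 12 of 12 mice, and Itgam was above Itgb1 (94.4 ± 7.28) in 6 of 12. Itgal (4.28 ± 1.07, 2.15 ± 0.642 and 3.76 ± 2.14 at P6, P15 and 8 weeks) and Itga4 (1.82 ± 0.371, 1.30 ± 0.407 and 1.56 ± 0.498) had the lowest means throughout, with Itgal above Itga4 in 10 of 12 mice at P15 and in every mouse at the other ages. Of the summed level of the 10, Itgb1 made up 26.5% ± 2.11 at P6 and 9.59% ± 1.29 at 8 weeks (SD), and Itgb5 40.2% ± 2.16 and 54.6% ± 3.11.

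Because a receptor needs both chains, the ratio of alpha to beta transcript per kilobase was taken within each library, where scaling between libraries cancels. These ratios are descriptions with no test. Cell makeup does not cancel, and its part in the ratios was not tested. P6 female 6, low in microglia markers, had a log2 ratio of Itgav to Itgb5 of -2.84, beside -4.37 to -3.59 in the other P6 mice. It was at 1.66 for Itgav over Itgb3 (beside -0.024 to 0.71) and -2.37 for Itga6 over Itgb1 (beside -1.94 to -1.58). For Itgam over Itgb2 and Itgal over Itgb2 it was inside the P6 range. The log2 ratio of Itgam to Itgb2 was -0.36 ± 0.10 at P6 (SD, 10 mice), 0.14 ± 0.25 at P15 and -0.56 ± 0.20 at 8 weeks (12 mice each). By these means the transcripts of the CR3 chains stayed within 1.47-fold of each other, while single mice ran from -1.04 to 0.56. Without division by length the means were 0.36, 0.86 and 0.16, with Itgam above Itgb2 at each age. The log2 ratio of Itgal to Itgb2 dropped from -3.25 ± 0.19 to -5.36 ± 0.28 and stood at -5.40 ± 0.54 at 8 weeks. Itgb2 was thus 9.54-fold above Itgal at P6 and 41.0-fold above it at P15, and the P6 mice overlapped with neither later age.

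Relative to Itgb1, the log2 ratio of Itga6 went from -1.82 ± 0.10 at P6 to -0.82 ± 0.07 at P15 and -0.84 ± 0.15 at 8 weeks. That of Itga9 went from -3.38 ± 0.19 to -2.40 ± 0.25 and -2.25 ± 0.14, and that of Itgav from -3.41 ± 0.09 to -2.59 ± 0.25 and -2.10 ± 0.17. For these 3 ratios none of the 10 P6 mice in the means overlapped with a later age. P6 female 6, left out of the means, stood at -2.90 for Itgav over Itgb1, inside the P15 range of -2.91 to -2.00. Itga4 over Itgb1 was -5.90 ± 0.20, -6.42 ± 0.42 and -5.97 ± 0.39, and its ages overlapped. Itgav over Itgb3 was 0.38 ± 0.26, 0.34 ± 0.48 and 0.48 ± 0.37, with overlapping ages. Itgb5 was above Itgav by 16.2-fold at P6, 26.3-fold at P15 and 24.6-fold at 8 weeks, with overlapping ranges. Ratios of counts without division by length shift each pair by a constant, which leaves the differences between ages as they are.

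**Figure D3:**
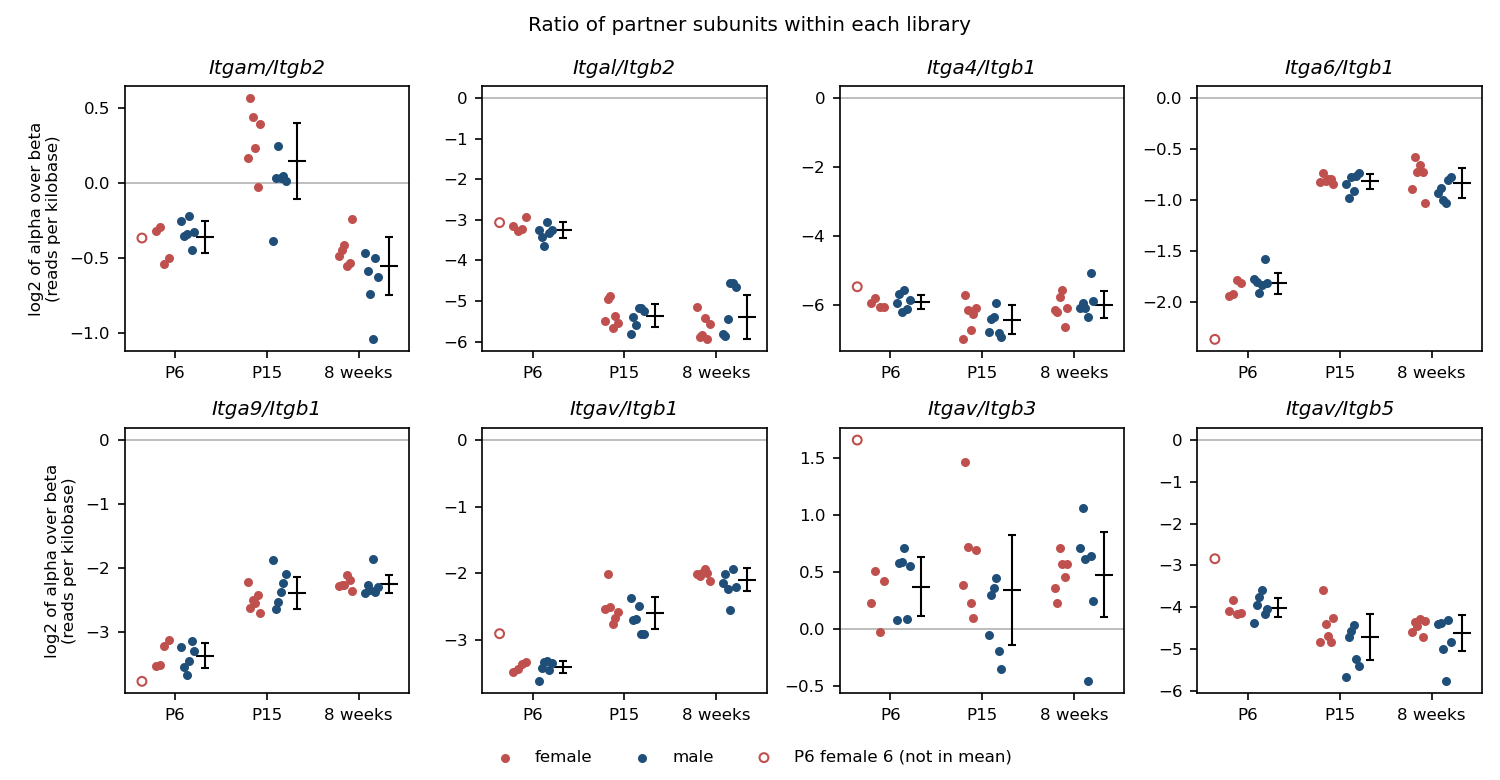
Log2 ratio of alpha over beta subunit transcripts per kilobase within each library, 1 point per mouse, by age and sex, with mean and SD in black, open points for P6 female 6 and a grey line at equal levels. Itgal over Itgb2 drops after P6 from a mean of -3.25 to -5.36 while Itga6, Itga9 and Itgav are higher relative to Itgb1 at both later ages than at P6.

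By edgeR, limma-voom and DESeq2, 0 of the 10 subunits were called different between males and females at P6, P15 or 8 weeks, and 0 had a sex difference that changed with age. Over all genes 0.0511%, 0.0681% and 0.114% were called at the 3 ages and 0% in the test of sex by age. At an unadjusted p under 0.05 each tool had 1 subunit in each of the 4 tests. Of all 17612 genes edgeR had 1250, 3200 and 518 under that threshold at P6, P15 and 8 weeks, and 2083 in the test of sex by age. By edgeR the subunits were Itga6 at P6 (236 ± 8.12 CPM in 4 females, 307 ± 60.9 in 6 males, FDR = 0.696) and Itgav at P15 (209.7 ± 24.5 in 6 females, 171 ± 33.5 in 6 males, FDR = 0.254). The test of sex by age gave Itgav, at an FDR of 0.406 by edgeR. At 8 weeks it was Itgal, with lowest, median and highest levels of 14.8, 16.0 and 21.5 CPM in females and 14.7, 29.9 and 58.2 in males, and a male over female log2FC of 0.92 ± 0.26 (FDR = 0.364, edgeR). The sexes overlapped, and the 3 males with the highest Itgal are those named above.

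Of the 17 other integrin subunits 15 passed the filter (Itgad and Itgb6 did not). Between P6 and P15 3 were higher and 4 lower, between P15 and 8 weeks 3 and 3, and between P6 and 8 weeks 3 and 5, with median log2FC of 0.11, -0.080 and -0.28. The shares of all genes called higher and lower were 30.4% and 31.4%, 24.0% and 23.9% and 37.8% and 36.6% in these comparisons, and those on the microglia marker scale and with the covariate are given above. On the microglia marker scale these became 1 and 11, 2 and 4, and 2 and 12. With the neural markers as a covariate they became 7 and 3, 5 and 1, and 7 and 2. Itgax (CD11c), a further Itgb2 partner known from early postnatal microglia of white matter, stood at 62.2, 98.2 and 133 CPM at P6, 7.94, 14.2 and 28.5 at P15 and 23.7, 27.3 and 35.2 at 8 weeks (lowest, median, highest). No P6 mouse overlapped with a later age. It fell to P15 (log2FC -2.68 ± 0.15, FDR = 3.56e-16) and rose after it (0.94 ± 0.14, FDR = 2.01e-06, edgeR), a rise that was lost with the neural markers as a covariate (0.40 ± 0.17, FDR = 0.0644).

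Itgae (CD103), a subunit of mucosal lymphocytes and dendritic cells, moved in the opposite directions. It was at 0.808 ± 0.396 CPM at P6, 12.9 ± 3.5 at P15 and 5.33 ± 1.48 at 8 weeks (SD, 10, 12 and 12 mice), with a log2FC of 4.07 ± 0.24 (FDR = 2.49e-15) and then -1.28 ± 0.19 (FDR = 2.41e-06, edgeR). Itgb7, the beta subunit that joins Itgae or Itga4, rose at both steps, from 2.7 ± 0.595 to 5.38 ± 1.90 and 11.2 ± 4.21 CPM. From P6 to 8 weeks Itga10, a collagen-binding subunit, rose from 1.65 ± 0.326 to 4.08 ± 0.981 CPM (log2FC 1.29 ± 0.17, FDR = 3.32e-08), and Itga11, another, fell from 1.74 ± 0.727 to 0.161 ± 0.180 CPM (-3.46 ± 0.46, FDR = 5.46e-08). Itga5, the fibronectin receptor subunit, fell from 49.2 ± 15.8 to 35.8 ± 3.96 CPM (-0.41 ± 0.12, FDR = 0.00299). Itgb8, the alphav partner that activates latent TGF-beta, was at 25.8 ± 6.63 and 36.3 ± 12.7 CPM and was not called (0.50 ± 0.27, FDR = 0.0892, edgeR). Scaled to the microglia markers the log2FC of Itga10 and Itgb8 turned to -0.22 and -1.0, and the first rise of Itgb7 to -0.33. The fall of Itga11 was not called with the neural markers as a covariate (-1.89 ± 0.98, FDR = 0.110), and Itgb8 was then called higher (2.72 ± 0.45, FDR = 7.33e-06), as it was in a fit of the P6 and 8-week mice alone (0.49 ± 0.21, FDR = 0.0358).

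**Figure D4:**
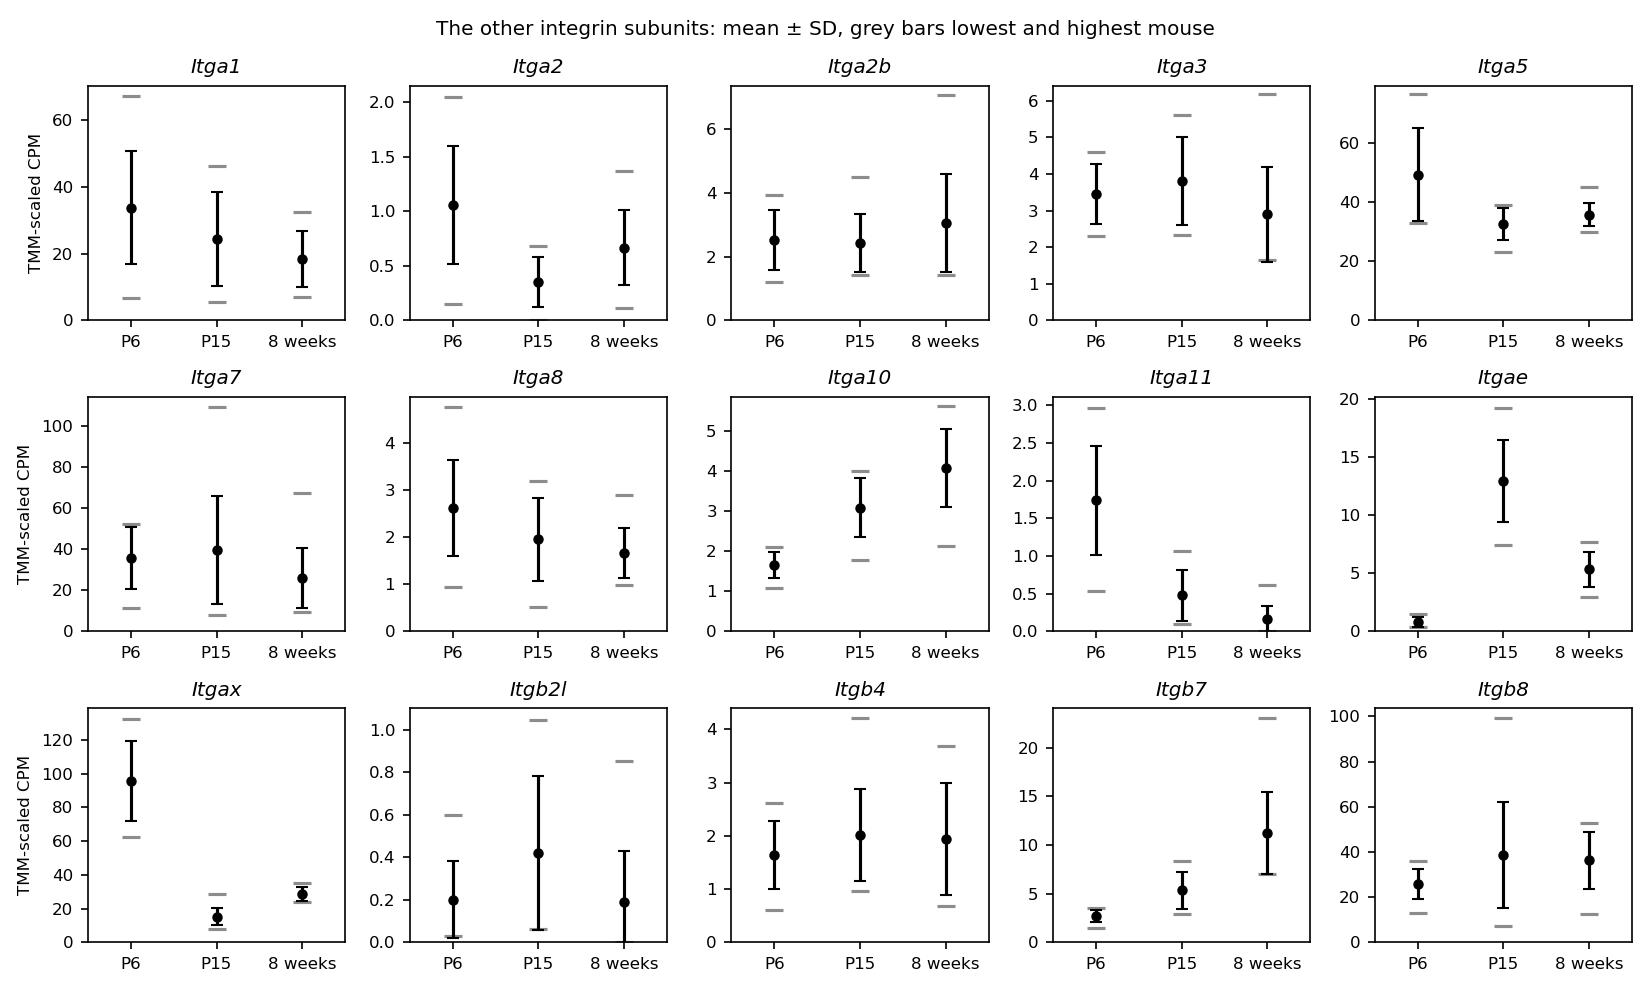
Level of the 15 other integrin subunits that passed the filter, in TMM-scaled CPM, as mean and SD over 10 P6, 12 P15 and 12 8-week mice with grey bars at the lowest and highest mouse and each panel on its own linear axis from 0. Itgax has its highest mean at P6 (95.7 CPM) and its lowest at P15 (15.1), and Itgae its lowest at P6 (0.808) and highest at P15 (12.9).

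Among 25 integrin ligands 23 were tested, and 5 were higher and 8 lower at P15 than at P6, 0 and 10 from P15 to 8 weeks, and 5 and 11 from P6 to 8 weeks, against those shares of all genes (median log2FC -0.077, -0.21 and -0.16). With the neural markers as a covariate the counts became 7 and 4, 6 and 6, and 8 and 6. Scaled to the microglia markers they became 2 and 20, 0 and 12, and 1 and 21. Spp1 (osteopontin), a ligand of Itgav and Itga9 receptors, stood at 606, 1072 and 1489 CPM at P6 (lowest, median, highest) and at no more than 16.2 CPM in any later mouse, a log2FC of -6.95 ± 0.25 to P15 (FDR = 6.32e-21, edgeR). Tnc (tenascin-C), which Itga9 receptors bind, fell from 89.4 ± 28.9 to 28.0 ± 13.6 and 9.33 ± 5.41 CPM. The laminin chain Lamb1 fell from 52.6 ± 19.1 to 6.47 ± 2.5 CPM and the fibrillin Fbn1 from 4.81 ± 1.13 to 0.927 ± 0.530 CPM between P6 and 8 weeks. Of 7 markers of mural cells and fibroblasts, 0 were higher and 5 lower over the same span (median log2FC -0.93), and their summed level ran from 146 to 1034 CPM at P6, 126 to 839 at P15 and 91.5 to 528 at 8 weeks. The part of these cells in the ligand levels was not tested. F11r (JAM-A), a junction protein bound by LFA-1, rose from 161 ± 32.2 to 512 ± 129 CPM at P15 (log2FC 1.71 ± 0.13, FDR = 4.45e-13, edgeR) and was at 547 ± 69.4 CPM at 8 weeks. Adam15, a membrane protease with an integrin-binding domain, rose from 289 ± 53.1 to 501 ± 74.9 CPM between P6 and 8 weeks, and Tgfb1, whose latent form is released by Itgav receptors, from 311 ± 74.4 to 463 ± 72.1 CPM. Relative to the microglia markers both turned, to a log2FC of -0.70 and -0.90, and with the neural covariate to -0.061 (FDR = 0.787) and -0.44 (FDR = 0.0417). That covariate also ended the calls from P6 to 8 weeks of Tnc (-0.89 ± 0.53, FDR = 0.167) and Fbn1 (-0.73 ± 0.48, FDR = 0.211).

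All 29 activators and adaptors that couple integrin tails to the cytoskeleton or to kinases were tested. At P15, 16 were higher and 6 lower than at P6, from P15 to 8 weeks 11 were higher and 3 lower, and from P6 to 8 weeks 15 were higher and 3 lower (median log2FC 0.34, 0.17 and 0.32). Of all genes 30.4% and 31.4%, 24.0% and 23.9% and 37.8% and 36.6% were called higher and lower in these comparisons. Scaled to the microglia markers these became 0 and 28, 7 and 11, and 2 and 27, where the shares of all genes were 2.90% and 84.7%, 10.3% and 33.4% and 5.17% and 83.0%. With the neural markers as a covariate the P15 to 8 weeks split turned to 7 and 13, and that from P6 to 8 weeks became 9 and 7, beside 19.6% and 19.3% and 25.8% and 23.7% of all genes. Ptk2b (Pyk2), a kinase acting downstream of integrins, rose at each step without overlap between P15 and 8 weeks, from 50.9 ± 10.5 to 85.3 ± 16.8 and 177 ± 23.4 CPM (P6 to 8 weeks log2FC 1.81 ± 0.11, FDR = 5.66e-16, edgeR). Its first rise turned to -0.56 ± 0.08 (FDR = 2.38e-07) relative to the microglia markers. From P6 to 8 weeks the Src family kinase Fgr rose from 2.76 ± 0.932 to 13.1 ± 5.66 CPM and Lyn from 363 ± 81.8 to 702 ± 80.9 CPM, with Lyn turning to -0.50 in log2FC relative to the microglia markers and to -0.092 (FDR = 0.577) with the covariate. Tln1 (talin), which binds beta subunit tails, was at 857 ± 197, 1008 ± 219 and 889 ± 166 CPM and was not called at any step with TMM scaling of the 34 mice (FDR from 0.0829 to 0.598, edgeR). On the microglia marker scale it was called lower throughout, at -1.07, -0.35 and -1.42 for P15 over P6, 8 weeks over P15 and 8 weeks over P6. With the covariate Tln1 was called lower from P15 (-0.80, FDR = 4.44e-06) and from P6 (-0.99, FDR = 2.75e-05) to 8 weeks, and with all 35 mice it was called higher at P15 than at P6 (0.32, FDR = 0.0373). Slc3a2 (CD98), which associates with beta subunits, was at 411 ± 57.9, 520.0 ± 92.7 and 445 ± 68.4 CPM. By edgeR it was called higher at P15 than at P6 (log2FC 0.34, FDR = 0.00262) and lower at 8 weeks than at P15 (-0.22, FDR = 0.0458). The second call was lost with all 35 mice (FDR = 0.0565). It was not called from P6 to 8 weeks (FDR = 0.235, edgeR). On the microglia marker scale Slc3a2 was lower from P6 to P15 (-0.95) and from P6 to 8 weeks (-1.38, FDR = 1.41e-13). Fermt1, the epithelial kindlin, was at 0.583 ± 0.447 CPM at P6 and at means of 0.0529 and 0.0447 CPM later, below what 3 fragments are worth (0.0770 to 0.129 CPM).

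Of 7 genes linked to the inhibition of integrins, not all of them inhibitors themselves, 3 were higher and 3 lower at P15 than at P6. At 8 weeks 4 were higher and 3 lower than at P6 (0 higher and 6 lower relative to the microglia markers, and 1 and 4 with the neural markers as a covariate, against the shares of all genes given above). Sipa1, which switches off the integrin activator Rap1, rose from 233 ± 46.4 to 529 ± 83.3 CPM from P6 to 8 weeks (log2FC 1.20 ± 0.11, FDR = 5.53e-11), and Dok1, which competes with talin for beta tails, from 33.2 ± 8.57 to 74.8 ± 17.5 CPM (1.20 ± 0.14, FDR = 5.25e-09, edgeR). Relative to the microglia markers both turned, to -0.30 and -0.30, and with the neural covariate neither was called (0.25 ± 0.15, FDR = 0.177 for Sipa1 and 0.21 ± 0.23, FDR = 0.468 for Dok1). Flna (filamin A), which also competes with talin, fell from 579 ± 56.4 to 253 ± 58.1 CPM (-1.19 ± 0.11, FDR = 1.05e-11) and Dok2, a relative of Dok1, from 15.5 ± 3.09 to 5.78 ± 1.44 CPM (-1.44 ± 0.14, FDR = 1.51e-10, edgeR).

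For Itgam, Itgal and Itgb5 the genes with the most similar profile over the 34 mice were looked up among the other 17611 tested genes by Pearson's r of log2 CPM, as a description. The mice of a group share age and sex, so r was also taken after the mean of each age and sex group had been removed. Differences in cell makeup between mice of a group remain in that r. Within groups Itgam had r = 0.916 with the microglia markers and -0.891 with the neural progenitor and immature neuron markers. These values were 0.858 and -0.743 for Itgb5, and 0.575 and -0.572 for Itgal. Itgam was most like Cmtm6, F11r and Abcb4 over all mice (r = 0.989, 0.988 and 0.986) and Msn, Lcp1 and Nckap1l within groups (0.974, 0.972 and 0.971). Itgb5 was most like Trf, Tcn2 and Vsir over all mice (0.995, 0.992 and 0.991) and Tcn2, Pald1 and Pld4 within groups (0.983, 0.980 and 0.976). For Itgal the values were lower, with Emilin2, Cd44 and Cxcr2 over all mice (0.869, 0.864 and 0.828) and Krt80, Spn and Myo1c within groups (0.861, 0.833 and 0.813).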

How the data were processed

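Messenger RNA of CD45+ microglia from 35 C57Bl/6 mice was sequenced, with 1 library per mouse. The authors made directional libraries, aligned paired-end reads to GRCm38/mm10 with STAR, ran featureCounts in reverse-stranded mode, and deposited raw counts per gene for each mouse, without filter or scaling. The annotation release is not given in the sources used here. Fragments over exons that same-strand genes share can be lost from such counts.

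The filter kept genes at 0.5 CPM or more in at least 5 mice (17612 of 55401), and TMM factors ran from 0.852 to 1.12. A two-sided quasi-likelihood test in edgeR 4.0.16 (glmQLFit, robust, then glmQLFTest) used 1 mean for each of 6 age and sex groups, taken from the labels, and age contrasts average the sexes. The mouse term in the study's model has no counterpart here, as there is 1 library per mouse, and p-values measure the spread between mice. FDR is the Benjamini-Hochberg adjusted p over all tested genes, called below 0.05, and glmTreat tested against a 2-fold change. SE is the size of the log2FC over the square root of F. The prior count of log2 CPM was 2. Other software was R 4.3.3, limma 3.58.1 (voom), DESeq2 1.42.0, Python 3.11.15, numpy 2.4.6, pandas 2.3.3 and matplotlib 3.10.9. GENCODE M21 named 55141 identifiers and gave coordinates and merged exon lengths, and the release behind the counts may differ.

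P6 female 6, which is not among the mice the study plotted, was left out and added back as an alternative. Chi-square per gene was at least 11.8 in each of 85 pairs of mice of one group, so none of these pairs were copies. A level of 3 counts was 0.0770 to 0.129 CPM, which covers counting error only. The subunits, the lists and the rule for naming genes (all 10 subunits, then from each other list up to 4 genes per direction past 2-fold from P6 to 8 weeks and the 3 with the highest level) were chosen with earlier results of these data known. S100a9, S100a8, Cd79b, Itga2b and Gm49368 were named outside that rule, after their values were seen. A gene that the rule named is not reported here. Alternatives changed the scaling, filter, tool, samples and covariates. Other libraries of the series were not used here.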

Additional observations from a re-analysis of the deposited data

Results flagged for a closer look

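Within each age and sex group the highest and lowest mouse was checked for a gap to the rest by Dixon's criterion, over 60 groups of 4 to 6 mice, and 4 mouse values stood apart. Chance alone gives such a gap in about 1 in 20 groups. Itga4 was at 18.4 CPM in P6 male 3 where the other P6 males had 27.5 to 32.6. Itgav was at 107 CPM in P15 male 1 and at 171 to 198 in the other P15 males, and Itgb1 in the same mouse was at 211 CPM beside 419 to 495. Itgb1 was at 313 CPM in female 1 of 8 weeks, where the other females of that age had 385 to 404. P15 male 1 was also the lowest P15 mouse for Itgam, Itgal, Itga4, Itga6 and Itga9, while its Itgb5 (1796 CPM) lay inside the P15 range. Its monocyte and border macrophage markers summed to 289 CPM, beside 646 to 1031 in the other P15 mice, and its neural progenitor and immature neuron markers to 831 CPM, beside 118 to 657.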

How the results depend on the processing

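The counts of called subunits stayed within 1.5 times of their values with DESeq2 size factors, without the filter on low counts, with at least 10 counts required in each mouse, with limma-voom, with DESeq2 and with all 35 mice, and the counts over age also without sex in the model. Relative to the microglia markers they became 2 higher and 8 lower (P15 over P6), 4 lower (8 weeks over P15) and 3 higher and 7 lower (8 weeks over P6), and past 2-fold 0 higher and 3 lower in both comparisons with P6. With the neural markers as a covariate they became 0 higher and 5 lower (8 weeks over P15), 4 higher and 2 lower (8 weeks over P6), and past 2-fold 1 higher and 1 lower (P15 over P6) and 0 higher (8 weeks over P6). Where 0 were lower from P6 to 8 weeks, library size scaling gave 2 (Itgal and Itgb1) and a fit of the compared groups alone 1 (Itgb1). Leaving out 1 P6 female, P15 male 1 or 8-week female 1 in turn, the latter mice chosen after seeing the data, gave 0 to 2 lower from P15 to 8 weeks (Itga6 and Itgb1 without P15 male 1) and 0 to 1 lower from P6 to 8 weeks (Itgb1 without P15 male 1). The cause was not tested for these or for the reversals that follow.

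Turned values are given where the value was called in either fit. Relative to the microglia markers the P15 over P6 log2FC turned to -0.20 for Itgb2, -0.31 for Itga6, -0.35 for Itga9, -0.48 for Itgav, -1.32 for Itgb1, -0.50 for Itgb3, -0.33 for Itgb7, -0.41 for Itga10, -0.54 for Adam15, -0.76 for Tgfb1, -0.32 for Fgr, -0.56 for Ptk2b, -1.07 for Tln1, -0.74 for Lyn, -0.95 for Slc3a2, -0.16 for Sipa1 and -0.43 for Dok1, the 8 weeks over P15 value to -0.15 for Itgam, -0.16 for Adam15, -0.14 for Tgfb1 and -0.14 for Sipa1, and the 8 weeks over P6 value to -0.67 for Itga6, -0.55 for Itga9, -0.35 for Itgav, -0.47 for Itgb3, -0.22 for Itga10, -1.0 for Itgb8, -0.70 for Adam15, -0.90 for Tgfb1, -1.42 for Tln1, -0.50 for Lyn, -1.38 for Slc3a2, -0.30 for Sipa1 and -0.30 for Dok1. With the neural markers as a covariate the P15 over P6 value turned to -0.27 for Itgb1 and 0.00855 for Fbn1, the 8 weeks over P15 value to -0.61 for Itgam, -0.00023 for Itgb2, -0.00596 for Itgal, -0.50 for Itgb3, 1.40 for Itgb8, -0.51 for F11r, -0.48 for Adam15, -0.57 for Tgfb1, -0.23 for Lyn, -0.52 for Sipa1 and -0.27 for Dok1 (and to -0.31 for Itgb5, called in neither), and the 8 weeks over P6 value to -0.12 for Itga6, -0.080 for Itga9, -0.17 for Itgb3, -0.061 for Adam15, -0.44 for Tgfb1, -0.99 for Tln1 and -0.092 for Lyn.

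Without division by length the log2 ratios at P6, P15 and 8 weeks were 0.36, 0.86 and 0.16 for Itgam over Itgb2, -2.15, -4.25 and -4.29 for Itgal over Itgb2, -4.13, -4.64 and -4.20 for Itga4 over Itgb1, -0.67, 0.33 and 0.31 for Itga6 over Itgb1, -2.46, -1.48 and -1.34 for Itga9 over Itgb1, -2.01, -1.20 and -0.70 for Itgav over Itgb1, 1.24, 1.21 and 1.34 for Itgav over Itgb3, and -2.42, -3.12 and -3.02 for Itgav over Itgb5.

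Mice share numbers across groups but are different animals. Over 80 pairs with the same number the median correlation of deviations from group means was 0.033 (lowest -0.54, highest 0.69, 27 pairs over 0.1). For the 400 pairs with other numbers the median was -0.011, and their count over 0.1 was not taken. With the number as a replicate block the subunits called were 7 higher and 2 lower at P15 than at P6, 3 and 0 from P15 to 8 weeks and 7 and 0 from P6 to 8 weeks, with 4 over 2-fold higher from P6 to 8 weeks in place of 3.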
